A study of Mus musculus with 12 samples.

Results

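The variable segments of the immunoglobulin heavy chain (Ighv genes) were examined in total colon of mice labelled S1PR4 KO and mice labelled WT. The members were the gene symbols that begin with Ighv and a digit and that held 10 or more raw counts in at least 1 of the 6 colon libraries. This rule took 81 segments of the 121 Ighv symbols and of the 30263 genes in the colon tables. The other 40 symbols stayed under 10 counts in every library, and 4 of them had a highest count of 7 to 9, beside 4 members whose highest count was 10 to 12. Counts outside the members made up 0.852% to 1.28% of all Ighv counts in a library. GENCODE annotates 79 of the members as functional V genes and 2, Ighv1-33 and Ighv5-21, as pseudogenes. All 81 lie on chromosome 12 (GRCm38), on the minus strand of the heavy chain locus, between 113588267 and 116000461.

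A developing B cell joins 1 V, 1 D and 1 J segment of this locus by V(D)J recombination, and the V segment supplies most of the antigen-binding part of the heavy chain, including the first and second complementarity-determining loops. Each B cell clone therefore carries a single productive heavy chain V segment. Plasma cells, the antibody-secreting end stage of B cells, transcribe the rearranged gene at a very high rate, and the gut lamina propria is rich in plasma cells that secrete IgA. Usage of V segments in tissue RNA thus reflects which plasma cell and B cell clones are present and how much RNA each contributes.

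The KO group was 3 total colon libraries of C57BL/6 mice labelled S1PR4 KO, and the WT group was 3 total colon libraries of C57BL/6 mice labelled WT. Both groups received azoxymethane (AOM, 10 mg/kg), a carcinogen, and DSS (0.5%), dextran sulfate sodium, an agent that damages the colonic epithelium, and were taken at day 84. The labels give neither the knockout allele nor sex or age, and do not say whether replicates were separate animals, so p-values measure only the spread between these samples. The series also holds 6 tables of CD8+ T cells from mammary tumors, which list 357 genes each and 0 Ighv symbols.

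S1pr4, the targeted gene, had 154, 162 and 118 raw counts in the libraries labelled KO, against 61, 47 and 25 in those labelled WT. These counts run opposite to what the labels lead one to look for, and counts per gene do not locate reads within it. KO and WT below therefore mean libraries labelled KO and labelled WT, and every direction rests on those labels. KO replicates 2 and 3 and WT replicate 1 were high in Xist, while KO replicate 1 and WT replicates 2 and 3 held reads of the Y-linked gene Ddx3y. Total counts ran from 7304082 to 8652561 per library. The highest count per annotated exon base, over genes of at least 300 bases, lay between 0.919 and 0.973 in the 6 libraries. A pair of abundant antibody genes were nearly flat across libraries, with 467 to 498 counts for Igkc, the kappa light chain constant gene, and 1137 to 1273 counts for Igha, the IgA constant gene. Among the segments the highest count per exon base was 0.5485, in KO replicate 3, and shares below are shares of deposited counts. Counts close to 1 per exon base, as for Igkc with 532 exon bases, can compress differences between libraries. The segments lay lower than Igkc, but Igha, also nearly flat, had only 0.426 to 0.477 counts per exon base. The highest segment of a library reached 0.486, 0.396 and 0.5485 in KO, against 0.382, 0.499 and 0.510 in WT. Whether differences between segments' counts were compressed was not tested. Values that assume at most 1 count per exon base are given in the section on processing.

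The 3′ ends of the coding sequence are shown for the segments on which the results turn, namely Ighv4-1, which differed most between the groups, Ighv3-6, which had the highest mean share, and the segments that led a library. Each line gives the last 120 coding bases, 5′ to 3′, from the GENCODE transcript on GRCm38, with capitals from the codon of the conserved cysteine to the end, the stretch next to which the D segment is joined. The stretches lie on the minus strand, at chr12:113948282-113948401 for Ighv4-1, chr12:114288152-114288271 for Ighv3-6, chr12:114153180-114153299 for Ighv7-3, chr12:113896408-113896527 for Ighv7-1, chr12:114357759-114357878 for Ighv13-2, chr12:114583569-114583688 for Ighv1-9 and chr12:114391712-114391831 for Ighv6-3.
Ighv4-1: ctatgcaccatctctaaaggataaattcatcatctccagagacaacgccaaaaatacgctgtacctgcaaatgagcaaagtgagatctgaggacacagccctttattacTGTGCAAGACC
Ighv3-6: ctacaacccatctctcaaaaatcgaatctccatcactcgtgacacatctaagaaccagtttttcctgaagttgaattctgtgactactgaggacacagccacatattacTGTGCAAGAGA
Ighv7-3: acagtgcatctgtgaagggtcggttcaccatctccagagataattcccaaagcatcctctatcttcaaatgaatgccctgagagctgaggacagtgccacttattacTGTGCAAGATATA
Ighv7-1: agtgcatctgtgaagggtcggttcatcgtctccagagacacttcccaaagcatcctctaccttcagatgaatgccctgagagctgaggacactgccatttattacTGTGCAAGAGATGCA
Ighv13-2: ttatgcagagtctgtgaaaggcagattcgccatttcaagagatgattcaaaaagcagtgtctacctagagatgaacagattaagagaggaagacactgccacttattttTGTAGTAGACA
Ighv1-9: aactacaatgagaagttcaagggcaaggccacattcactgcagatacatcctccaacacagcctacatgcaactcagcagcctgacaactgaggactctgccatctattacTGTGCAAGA
Ighv6-3: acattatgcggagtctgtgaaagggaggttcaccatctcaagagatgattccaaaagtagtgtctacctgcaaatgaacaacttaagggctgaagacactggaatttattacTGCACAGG

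Segments are close relatives of each other, which bears on how reads could be assigned. Compared with the transcripts of all 185 annotated Ighv genes, 43 of the 81 members had another segment at 95% identity or more. Of the stretches of 50 bases in a member, a median of 77.7% occurred in no other Ighv transcript, and 6 members were under 50%, the lowest being Ighv1-52 with 32.8%. The leading segments were mostly distinct, at 100% for Ighv7-1 and Ighv13-2, 99.3% for Ighv1-9, 96.7% for Ighv3-6, 93.3% for Ighv7-3 and 86.0% for Ighv6-3. Ighv1-53, at 42.4%, and Ighv1-26, at 51.0%, are uncertain as single segments.

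Usage was broad and differed from library to library. A usage share is the percentage of a library's Ighv counts that fell in 1 segment, and the exons of the members ran from 295 to 480 bases, so the order of segments was also taken per exon base. Ighv3-6 had the highest mean share over the 6 libraries, 4.67% ± 3.02 (SD, n = 6), and was also highest per exon base. Its shares were 3.13%, 2.03% and 10.6% in KO, against 3.74%, 4.29% and 4.23% in WT. KO replicate 3 stood high and the other KO libraries below every WT library. Ighv7-3 was next, with 4.44% ± 4.28 (SD, n = 6), again per exon base too. Its shares were 1.98%, 5.003% and 12.8% in KO, against 3.11%, 1.32% and 2.42% in WT. The share was highest in KO replicates 2 and 3, while KO replicate 1 lay within the WT range. The next 8 by mean share, from Ighv6-6 at 3.11% through Ighv1-82, Ighv10-1, Ighv1-5, Ighv1-53, Ighv5-17 and Ighv1-9 to Ighv6-3 at 2.63%, had SDs of 1.09 to 2.12 and do not differ in order beyond that spread. Of the 10 highest by mean share, 9 were also among the 10 highest per exon base.

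Among these 8, Ighv6-6 had 116, 109 and 28 counts in KO, against 21, 155 and 123 in WT, and was low in 1 library of either group. Ighv1-5 had 74, 108 and 65 counts in KO, against 131, 17 and 43 in WT, so that its highest and lowest counts were both in WT. Ighv1-9 had 143, 47 and 7 counts in KO, against 48, 175 and 66 in WT, and led WT replicate 2. Ighv6-3, the leader in KO replicate 1, had 173, 85 and 21 counts in KO, against 82, 65 and 51 in WT. Ighv5-17 had 144, 68 and 24 counts in KO, against 58, 124 and 60 in WT. Ighv1-53 had 83, 33 and 108 counts in KO, against 65, 61 and 53 in WT. In all 6 of these segments the groups overlapped. By share of Ighv counts, KO replicate 3, which held the fewest Ighv counts, was the lowest KO library for Ighv6-6, Ighv1-9, Ighv6-3 and Ighv5-17 and the highest for Ighv1-5 and Ighv1-53.

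**Figure D1:**
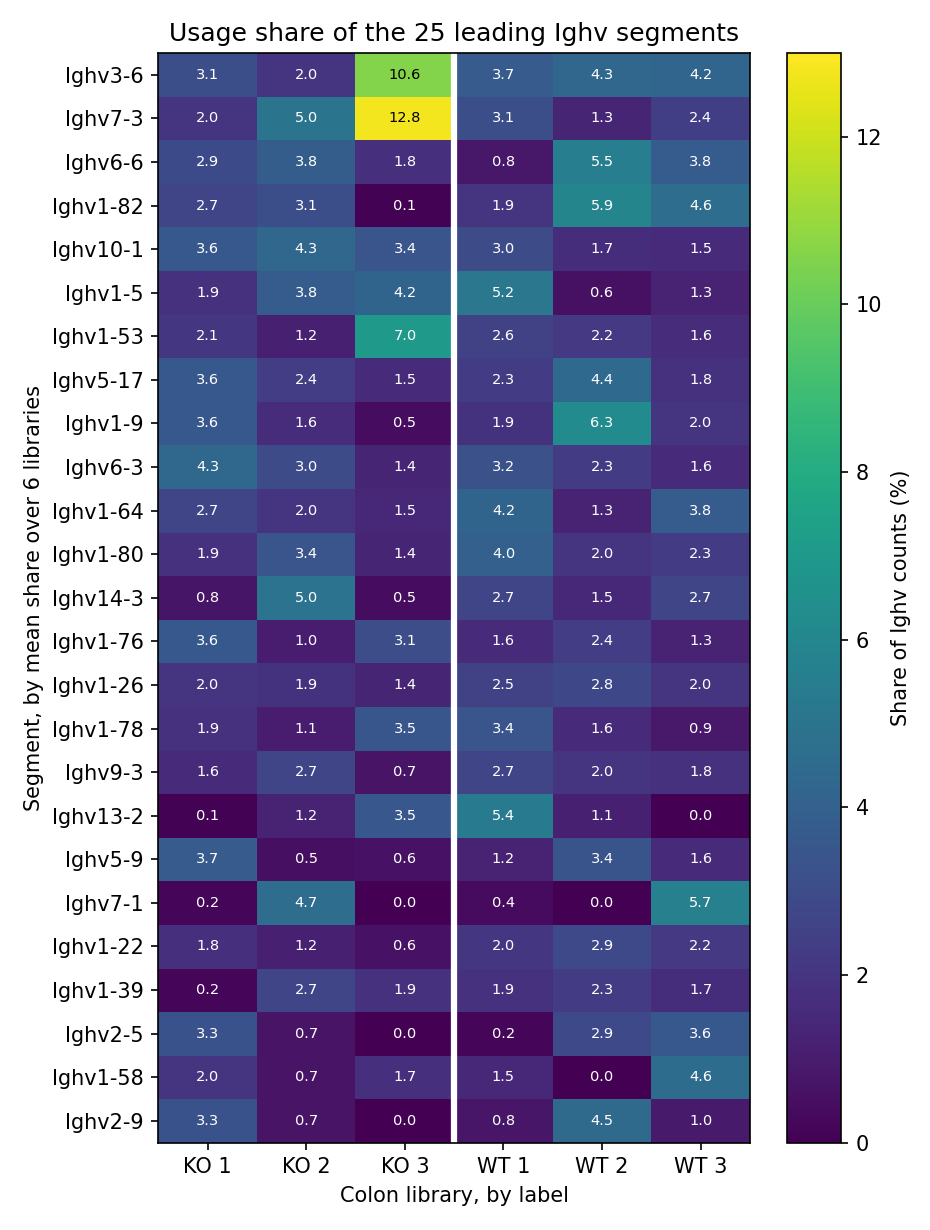
Share of Ighv counts (%) of the 25 segments with the highest mean share (rows) in each colon library (columns, KO left of WT), printed in each cell and coloured from 0 to 13%. The 2 brightest cells are Ighv7-3 (12.8%) and Ighv3-6 (10.6%) in KO replicate 3.

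Few segments were used evenly in all libraries. Of the 81 members, 53 had a count in every library, 23 had 10 or more counts in every library, and 10 held at least 1% of Ighv counts in every library. These 10 were Ighv3-6, Ighv7-3, Ighv10-1, Ighv1-53, Ighv5-17, Ighv6-3, Ighv1-64, Ighv1-80, Ighv1-76 and Ighv1-26. At the other end, 21 members reached 1% in no library and 8 in a single library. For 50 members the highest share was at least 10 times the lowest or the lowest was 0. Ighv7-1 was the plainest case, with 7, 133 and 0 counts in KO, against 10, 1 and 185 in WT. It had 10 counts or fewer in 4 libraries and was among the 3 highest segments of KO replicate 2 and of WT replicate 3. Ighv13-2, the only member of its family, had 4, 35 and 55 counts in KO, against 137, 32 and 1 in WT. The WT libraries held both its highest and its lowest count, so the KO counts lay within the WT range. Ighv1-82 had 108, 89 and 1 counts in KO, against 49, 165 and 151 in WT, so that it was strong in 5 libraries and all but missing from KO replicate 3. As a measure over all libraries, edgeR's biological coefficient of variation had a median of 0.655 over the 57 segments that passed the filter on low counts. It was 0.199 over all 17195 genes tested and 0.305 over 1540 other genes in the middle of the segments' range of mean counts. For 36 of the 57 it lay above the 95th percentile of all genes tested.

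A different segment led in nearly every library, and in the deposited counts dominance by 1 segment was modest except in KO replicate 3. In KO, the leading segments were Ighv6-3 in replicate 1 with 4.33% of Ighv counts (95% Wilson interval 3.74% to 5.01%), Ighv7-3 in replicate 2 with 5.003% (4.26% to 5.865%), and Ighv7-3 in replicate 3 with 12.8% (11.2% to 14.5%). In WT, they were Ighv13-2 in replicate 1 with 5.40% (4.58% to 6.35%), Ighv1-9 in replicate 2 with 6.26% (5.42% to 7.22%), and Ighv7-1 in replicate 3 with 5.675% (4.93% to 6.52%). KO replicate 3 stood apart from the other 5, whose leading shares lay between 4.33% and 6.26%. The intervals cover counting error only. The leading share averaged 7.37% ± 4.69 in KO and 5.78% ± 0.441 in WT (SD, n = 3 each), a difference of 1.59 percentage points that did not exceed the spread (2-sided exact permutation p = 1.0, where 3 against 3 can give no less than 0.1). Without KO replicate 3 the difference was -1.11.

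The 10 leading segments of a library held 35.75%, 39.9% and 54.45% of Ighv counts in KO, against 38.8%, 43.0% and 39.9% in WT. The segments that together held 50% of Ighv counts numbered 16, 14 and 9 in KO, against 15, 13 and 15 in WT. KO replicate 3 again reached these marks with the fewest segments, through Ighv7-3, Ighv3-6 and Ighv1-53 at 12.8%, 10.6% and 6.97%. The effective number of segments, the inverse of the unbiased Simpson index (the number of equally used segments that would give the same chance of drawing 1 segment in a pair of reads), was 42.9, 38.7 and 21.5 in KO, against 39.6, 34.4 and 39.9 in WT. It averaged 34.4 ± 11.3 in KO and 38.0 ± 3.08 in WT (SD, n = 3 each; 2-sided exact permutation p = 0.8), and the difference of -3.585 became 2.85 without KO replicate 3. Thinned to the 1550 counts of the shallowest library, 75.4, 73.1 and 62.0 segments were expected in KO, against 73.7, 68.3 and 70.45 in WT. The unthinned numbers were 80, 75 and 62 in KO, against 76, 71 and 73 in WT.

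**Figure D2:**
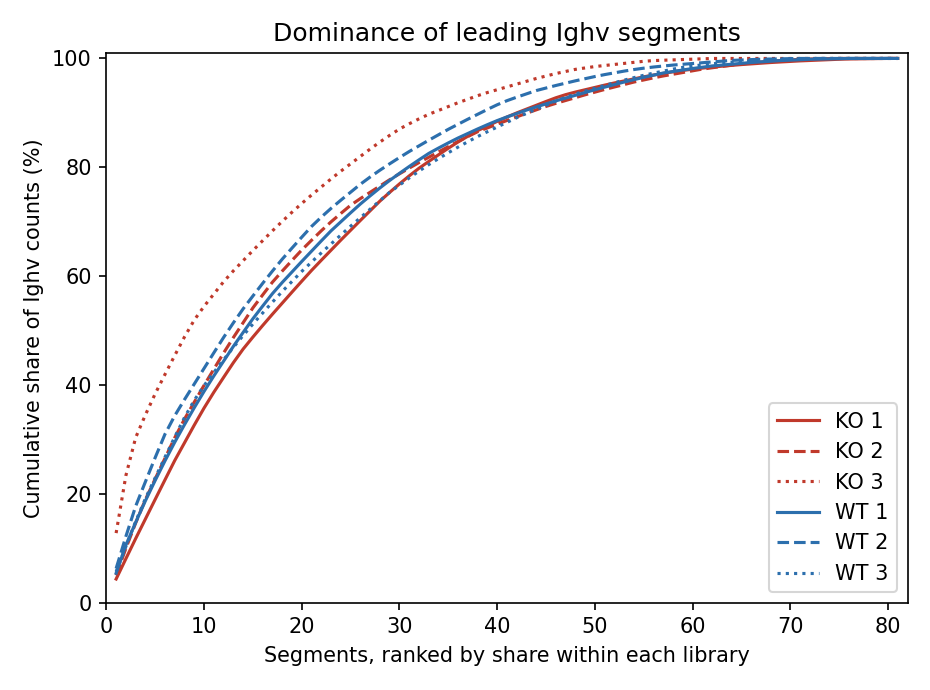
Cumulative share of Ighv counts (%, vertical axis) against segments ranked by share within each library (horizontal axis), with KO libraries in red and WT libraries in blue. The curve of KO replicate 3 rises first and reaches 54.45% at 10 segments, where the other 5 libraries stand at 35.75% to 43.0%.

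The summed level of the segments followed neither group. Ighv counts over the 81 members came to 3994, 2858 and 1550 in KO, against 2538, 2795 and 3260 in WT. On the CPM scale (counts set relative to library size, with TMM normalisation), this was 510, 378 and 211 in KO, against 300.2, 374 and 408 in WT. The highest and the lowest library were both KO, so the groups overlapped. The mean was 366 ± 150 CPM in KO and 360.5 ± 54.9 CPM in WT (SD, n = 3 each), with a log2 difference of -0.06 (2-sided exact permutation p = 0.9). Without KO replicate 3 that difference was 0.30, and without KO replicate 1 it was -0.34. In RNA from whole tissue, fewer antibody-producing cells and less antibody RNA per cell cannot be told apart.

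Other antibody-related genes gave the setting in which the segments were counted. None of 12 plasma cell genes, 12 B cell genes or 7 constant genes tested passed edgeR's test, nor did any gene in colon (0% of 17195 called, with 870 at an unadjusted p under 0.05, 18 called by DESeq2 and 0 by limma-voom). The 12 plasma cell genes include Jchain, which links IgA dimers, and Xbp1, a secretory factor. Of these 12, 11 had a higher fitted value in KO, as had 8431 of all 17195 tested genes. The median log2 difference of the 12 was 0.18, where the median over all tested genes was -0.0045. Their summed level was 875, 901 and 856 CPM in KO, against 759, 854 and 804 CPM in WT. The largest parts of that sum were Txndc5, Sdc1 and Xbp1, with means of 227, 201 and 165 CPM in KO, where Mzb1 had 25.2. Which cells of the colon these counts came from was not tested, so the sum is not a measure of plasma cells alone. The 12 B cell genes, such as the B cell identity factor Pax5, summed to 414, 177 and 79.9 CPM in KO, against 400.2, 324 and 84.4 CPM in WT. The B cell sum was low in KO replicate 3 and WT replicate 3 alike, where the segments summed to 211 and 408 CPM. Heavy chain constant genes summed to 510, 384.5 and 299 CPM in KO, against 387, 437 and 290.2 CPM in WT. Within them Ighg3 had 477, 158 and 27 counts in KO, against 132, 239 and 38 in WT, and Ighm, the constant gene of IgM, had 944, 613 and 394 counts in KO, against 867, 744 and 455 in WT. Both were lowest in replicate 3 of either group, as were Ighd and Ighg2b, but this did not hold for all constant genes. Ighg1 was lowest in replicate 1 of either group, with 146, 412 and 350 counts in KO, against 186, 300 and 326 in WT. Ighg2c was lowest in replicate 2 of either group, and Igha was nearly flat. The 5 genes of V(D)J recombination and of developing B cells were low, and none passed the filter. Rag1, Rag2 and Igll1 had at most 1 count in any library and Dntt at most 3. Vpreb1, a part of the surrogate light chain of developing B cells, was present in every library, with 4, 6 and 3 counts in KO, against 2, 7 and 9 in WT. Smooth muscle genes also stood apart in KO replicate 3, with a sum of 685 CPM, where the other 5 libraries held 1004 to 1209 CPM. The part of B cell content and tissue makeup in the usage of KO replicate 3 was not tested.

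**Figure D3:**
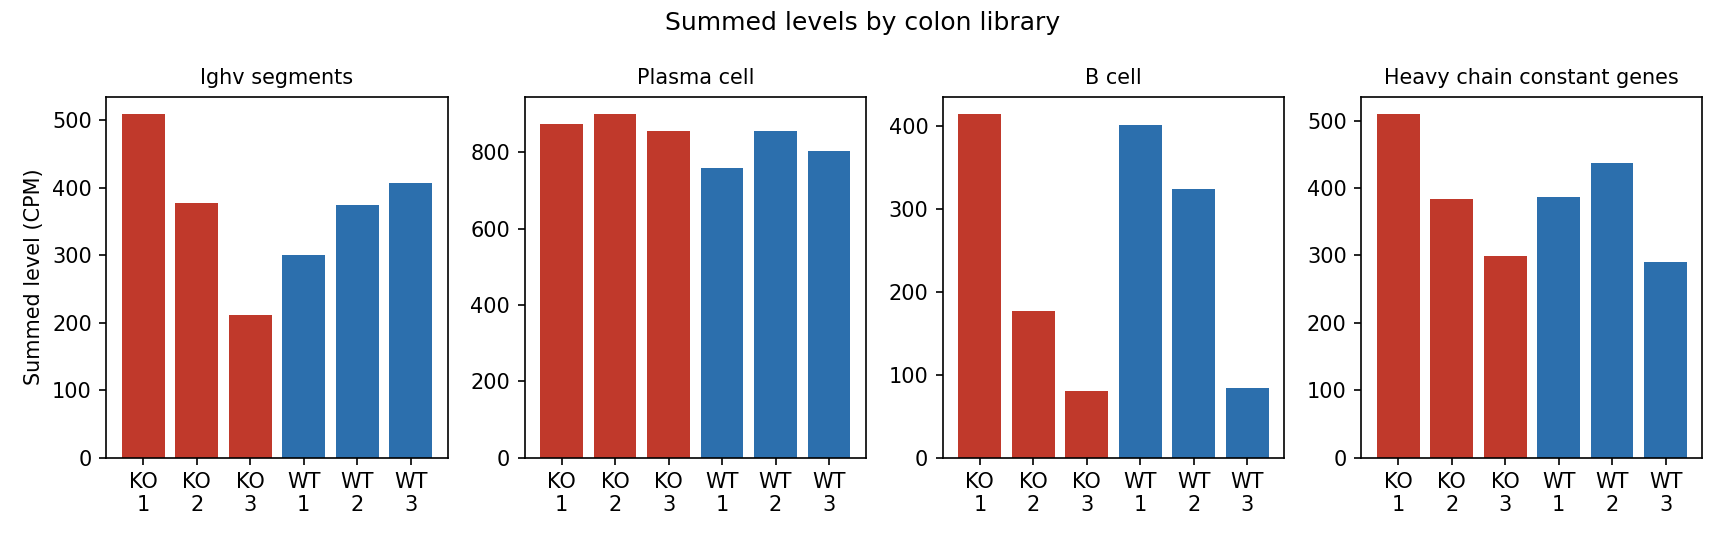
Summed level in CPM (vertical axes, from 0) of the 81 Ighv segments, 12 plasma cell genes, 12 B cell genes and 8 heavy chain constant genes in each colon library, KO in red left of WT in blue. The segment sum is highest in KO replicate 1 (510 CPM) and lowest in KO replicate 3 (211 CPM), while the B cell sum is low in replicate 3 of both groups (79.9 and 84.4 CPM).

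Segments are grouped into families by sequence, given by the number after Ighv. Ighv1, the largest family in the mouse, held 39 of the 81 members and 45.6%, 46.6% and 54.65% of Ighv counts in KO, against 51.65%, 44.8% and 46.2% in WT. The groups overlapped, with means of 48.95% ± 4.95 in KO and 47.55% ± 3.63 in WT (SD, n = 3 each; 2-sided exact permutation p = 0.6). The direction turned without KO replicate 3, where the difference was -1.44 percentage points. Ighv5, with 9 members, held 12.6%, 6.23% and 4.58% in KO, against 7.45%, 14.1% and 7.91% in WT. Ighv2, also with 9 members, held 15.75%, 5.14% and 1.68% in KO, against 4.61%, 9.23% and 8.65% in WT. Its highest and lowest shares were both in KO libraries. Ighv7, with 3 members, held 2.18%, 10.04% and 13.03% in KO, against 4.33%, 1.50% and 8.34% in WT, which overlapped as well. Ighv9, with 4 members, held 3.48%, 4.37% and 2.26% in KO, against 4.255%, 4.87% and 4.72% in WT, with KO replicate 2 inside the WT range. Of the 13 families, the groups did not overlap for Ighv4 alone, whose single member is described below (2-sided exact permutation p = 0.1, the smallest that 3 against 3 can give, unadjusted over 13 families).

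**Figure D4:**
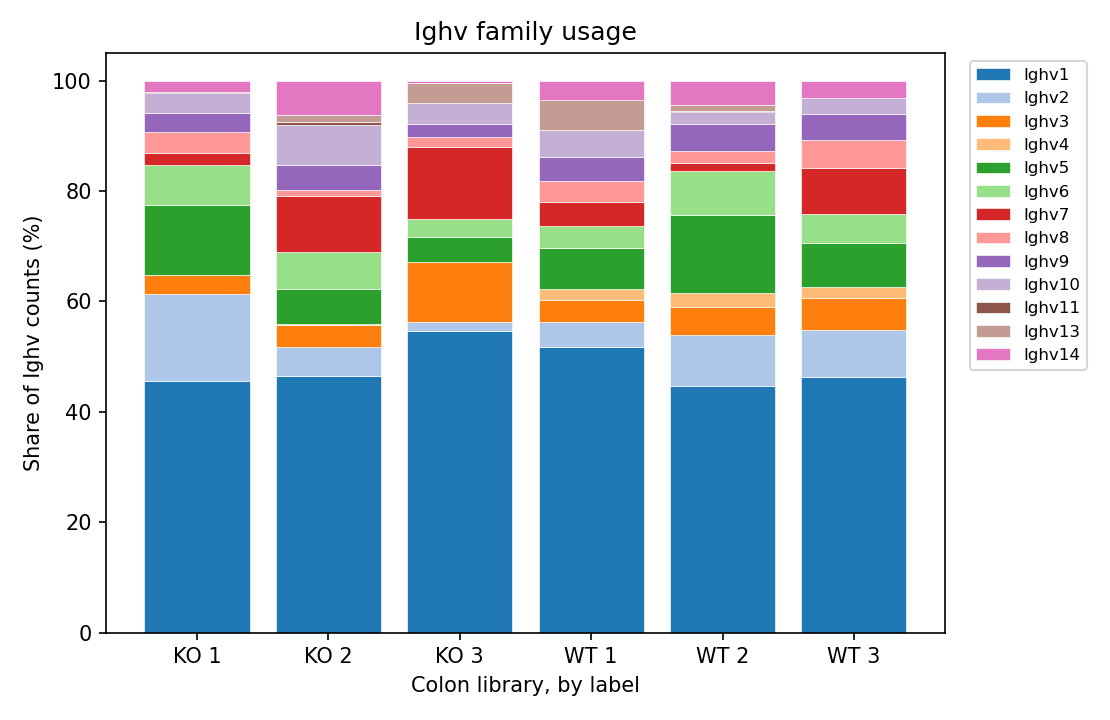
Share of Ighv counts (%, stacked bars from 0 to 100) in each of the 13 Ighv families, by colon library with KO left of WT. The Ighv1 family at the bottom takes 44.8% to 54.65% in every library, and the Ighv2 and Ighv7 bands vary most between KO libraries.

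Position along the locus was also compared, since the D, J and constant genes lie at one end of the V array. The 40 members nearest to D held 52.9%, 56.1% and 48.2% of Ighv counts in KO, against 50.2%, 54.3% and 50.6% in WT. The means were 52.4% ± 3.99 in KO and 51.7% ± 2.27 in WT (SD, n = 3 each; 2-sided exact permutation p = 0.9). Over the 81 members, the mean share and the order from D had a Spearman correlation of 0.11, given as a description over segments that share the same 6 libraries.

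Likeness of usage between libraries was compared within and across labels. Over the 81 shares, the Spearman correlation between libraries ran from 0.30 to 0.46 for the 3 pairs of KO libraries, from 0.34 to 0.60 for the 9 pairs of KO with WT, and from 0.53 to 0.58 for the 3 pairs of WT libraries. The usage that a pair had in common, the sum over segments of the lower of both shares, was 49.1% to 57.7% for KO pairs, 45.15% to 66.6% for KO with WT pairs, and 59.1% to 64.3% for WT pairs. The most alike pair was KO replicate 1 with WT replicate 2, which shared 6 of their 10 leading segments. These values are descriptions, and no difference between kinds of pair was tested.

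For single segments the comparison of KO with WT asks whether the level in CPM in the treated colon differs with the S1PR4 label. It is not a test of the share of Ighv counts, which also depends on the summed Ighv level. Of the 81 members, 24 did not pass the filter on low counts, and Ighv7-1, which led WT replicate 3, was among them. None of the 57 tested passed edgeR's quasi-likelihood test with Benjamini-Hochberg adjustment over all genes (0% of 17195 genes called, smallest adjusted p of a segment 0.829). At an unadjusted p under 0.05 there were 8 of the 57 segments, against 870 of 17195 genes (5.06%), a higher share among segments. That difference in share was not tested, and the segments share the same 6 libraries, so it is not read as a result about the segments. Of the 8 segments, 4 were higher in KO (2.62% of all genes) and 4 were lower (2.44%). At that threshold limma-voom and DESeq2 gave 6 segments each. Limma-voom called 0 segments, and DESeq2 called 1 (0.105% of genes called). The fitted values were higher in KO for 26 segments and lower for 31, with a median log2 difference of -0.04, where all tested genes had -0.0045. The levels of the groups did not overlap for 6 of the 57 (10.5%), against 9.58% of all tested genes, a share near the background. In KO 3 were higher, against 4.55% of all genes, and 3 lower, against 5.04%. The 3 lower ones, Ighv4-1, Ighv1-59 and Ighv1-69, reached 10 counts in WT libraries alone and so passed the filter through the group where they were high. Their non-overlap, and their place among the 8 at an unadjusted p under 0.05, therefore partly follow from the filter. The counts over tested segments support no direction. By share of Ighv counts in place of CPM, the groups of Ighv7-3, Ighv1-75 and Ighv1-59 overlapped.

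Ighv4-1 had the smallest p of the tested segments in edgeR, and it was the one DESeq2 called. It entered the test through its WT counts, since no KO library reached 10. It had 5, 6 and 1 counts in KO, against 48, 72 and 64 in WT. All 3 KO libraries were far below all 3 WT libraries, including KO replicate 1, which held the most Ighv counts of all. In share of Ighv counts this was 0.125%, 0.210% and 0.0645% in KO, against 1.89%, 2.58% and 1.96% in WT. Its level averaged 0.523 ± 0.344 CPM in KO and 7.77 ± 1.99 CPM in WT (SD, n = 3 each), a log2 difference of -3.84 ± 0.52 (SE). Ighv4-1 was called by DESeq2 (adjusted p = 2.1e-05) and not by edgeR (adjusted p = 0.829, unadjusted p = 2.8e-04). The log2 difference stayed between -4.25 and -3.40 in edgeR when single libraries were left out. Adjusted p lay between 0.0839 and 0.9999 over those and the other edgeR and limma-voom settings. The difference was present within both sets of libraries, at -5.21 CPM among those high in Xist and -8.18 CPM among those with Y-linked reads, where a group has 1 or 2 libraries.

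Ighv4-1 (chr12:113948282-113948796) is the only functional V gene of its family in the tables. Its closest relative is the pseudogene Ighv4-2, 64.9 kb farther from D, at 96.4% identity, and 70.1% of the 50-base stretches of Ighv4-1 occurred in no other Ighv transcript. Ighv4-2, chosen like the neighbours after values were seen, had 2, 0 and 0 counts in KO, against 0, 0 and 0 in WT, so the relative held almost no counts in either group. The nearest listed segments on either side were low in both groups. Ighv14-1, 16.3 kb nearer to D, had 6, 7 and 0 counts in KO, against 1, 1 and 2 in WT. Ighv3-1, 16.1 kb on the other side, had 3, 15 and 0 counts in KO, against 3, 12 and 0 in WT. With WT counts this low, neither could show a difference like that of Ighv4-1, so they do not tell whether it reached beyond that segment.

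The other segments with the smallest p were less clear, and none was called by edgeR (adjusted p = 0.829 for each), DESeq2 or limma-voom. On the higher side, Ighv7-3 had 79, 143 and 198 counts in KO, against 79, 37 and 79 in WT. After scaling, its level was 10.1, 18.9 and 27.0 CPM in KO, against 9.35, 4.95 and 9.88 CPM in WT. The groups did not overlap, but KO replicate 1 cleared the highest WT library by very little, and the log2 difference of 1.21 ± 0.43 (SE) was 0.85 without KO replicate 3. Ighv1-75 had 16, 26 and 19 counts in KO, against 12, 9 and 12 in WT, a log2 difference of 0.96 ± 0.30 (SE) at low counts. In CPM its groups did not overlap, and 57.1% of its 50-base stretches were unique. Ighv1-12 had 32, 108 and 25 counts in KO, against 7, 11 and 26 in WT. After scaling to CPM the groups did not overlap, and the log2 difference of 1.96 ± 0.75 (SE) was 1.01 without KO replicate 2, the library with 108 counts. Ighv10-1, with 142, 123 and 53 counts in KO against 76, 48 and 50 in WT, and Ighv2-3, with 148, 50 and 3 counts in KO against 7, 4 and 25 in WT, overlapped between groups. The log2 difference of Ighv2-3 ran from 1.22 to 3.63 when single libraries were left out.

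On the lower side after Ighv4-1, Ighv1-69 had 9, 5 and 3 counts in KO, against 14, 13 and 24 in WT, a log2 difference of -1.50 ± 0.46 (SE). Ighv1-59 had 5, 9 and 8 counts in KO, against 16, 24 and 14 in WT, a log2 difference of -1.22 ± 0.39 (SE). In CPM the groups of both did not overlap, but neither reached 10 counts in any KO library. They are 96.9% identical to each other, with 59.6% and 63.2% unique 50-base stretches, and are uncertain as single segments. Ighv5-16 had 28, 13 and 11 counts in KO, against 25, 57 and 69 in WT, and Ighv1-18 had 17, 25 and 20 counts in KO, against 42, 41 and 20 in WT. In both of these segments 1 WT library reached into the KO range.

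**Figure D5:**
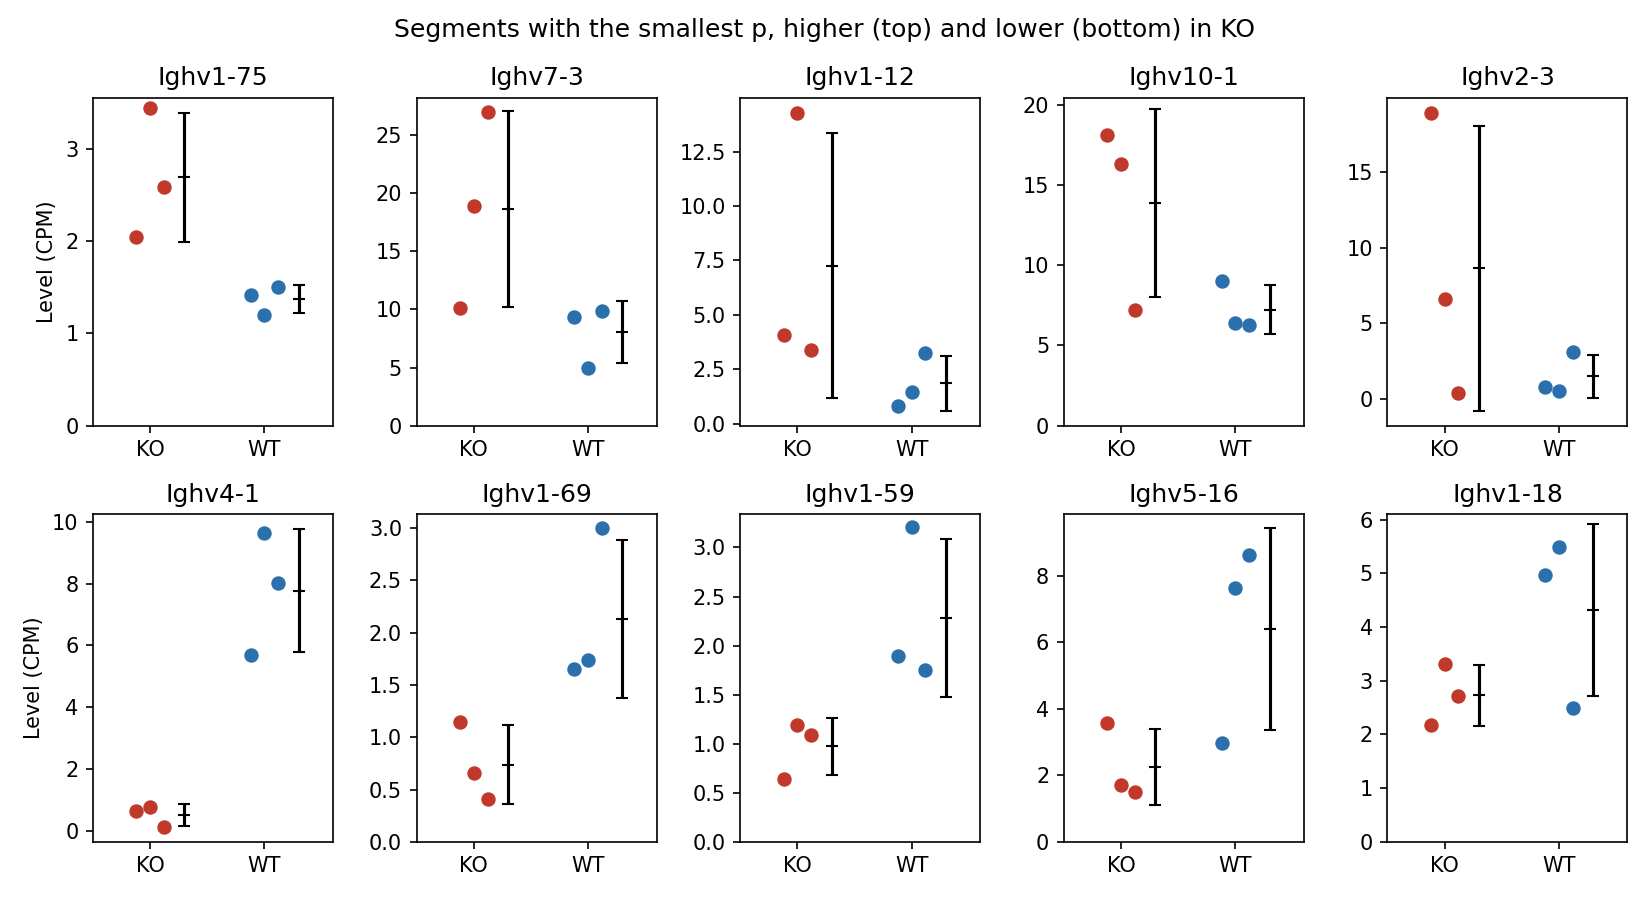
Level in CPM (vertical axes) of the 5 segments higher and the 5 lower in KO with the smallest p, with 1 point per library, KO in red left of WT in blue, and the mean with SD in black. In Ighv4-1 the 3 KO points lie under 1 CPM and the 3 WT points between 5.68 and 9.63 CPM, while in Ighv2-3 and Ighv10-1 the groups overlap.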

How the data were processed

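The deposited colon tables hold raw read counts per gene, per the file headers. STAR, TopHat2, RSEM, HTSeq and DESeq2 with mm10 and GRCm38 are named, without roles or versions, per the submitters' processing notes. Treatment of duplicate and multiply mapped reads and strand setting are not given in the sources used here. Annotation was GENCODE vM21 (GRCm38), which held 30212 of 30263 gene IDs. In R 4.3.3, edgeR 4.0.16 tested KO against WT over all colon genes that passed filterByExpr, with TMM factors, robust quasi-likelihood F tests and Benjamini-Hochberg adjustment at 0.05. DESeq2 1.42.0 and limma 3.58.1 were alternatives. Fold changes are KO over WT. Single values per library were compared by exact permutation with SciPy 1.17.1. Same-numbered replicates were not treated as pairs. Every pair of replicate libraries differed beyond counting noise, with a chi-square over genes divided by its degrees of freedom of at least 5.58. Named segments were those leading a library, with 5% in any library, the 10 highest by mean share, and the 5 higher and 5 lower with the smallest p. The members and lists were chosen with earlier results of these data known.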

Additional observations from a re-analysis of the deposited data

Results flagged for a closer look

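The effective number of segments was singled out within the 2 sets of libraries told apart by Xist and Y-linked reads. Each KO library lay beyond every WT library of its set, in opposite directions in the 2 sets. Among the usage measures and the 5 higher and 5 lower segments with the smallest p, the effective number alone met this rule. Mean differences of the summed level, leading share and Ighv1 share also had opposite signs. Among the libraries high in Xist, KO replicates 2 and 3 averaged 30.1 and WT replicate 1 stood at 39.6, a difference of -9.51. Among those with Y-linked reads, KO replicate 1 stood at 42.9 and WT replicates 2 and 3 averaged 37.1, a difference of 5.78. The differences are -15.28 segments apart. The difference between the sets was not tested, and each set has a group of 1 library. KO replicate 2 stood at 38.7 and KO replicate 3 at 21.5.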

How the results depend on the processing

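In edgeR, the count of called genes and of called segments was 0 under every scaling, filter, left-out library and with Xist status as a covariate, and 0 with limma-voom. DESeq2 called 18 genes and 1 segment, Ighv4-1. The log2 differences of the 10 segments with the smallest p kept their direction in every setting in which they were tested. With a filter on a mean of at least 50 counts, only Ighv7-3 and Ighv10-1 of them were tested. The 10 were chosen by p in these same libraries, so their constant direction is no separate support. The usage measures did not keep their direction. The summed level (log2 difference -0.06) became 5.77 CPM on the linear scale and 0.39 within the libraries with Y-linked reads, and ran from -0.34 to 0.30 when single libraries were left out. The leading share (1.59 percentage points) was -1.64 within the Y-linked libraries and ran from -1.11 to 3.11. The effective number (-3.585) was 5.78 within the Y-linked libraries and ran from -7.85 to 2.85. The Ighv1 share (1.41 points) was -0.92 when at most 1 count per exon base was assumed and -1.05 within the libraries high in Xist, and ran from -1.44 to 3.46. The share nearest D (0.73 points) was -2.55 without each library's leading segment and -1.52 for the nearest 27 segments, and ran from -1.14 to 2.83. The cause was not tested. Assuming at most 1 count per exon base, chosen after seeing the data, the leading share of KO replicate 3 was 16.4% in place of 12.8%. It was 5.29% and 5.81% in KO replicates 1 and 2, and 6.32%, 8.01% and 7.07% in WT. The effective number was then 39.3, 35.3 and 16.15 in KO, against 36.6, 29.9 and 35.1 in WT. Every leading share was higher, and every effective number lower, than from the deposited counts. With group means removed, same-numbered replicates correlated at -0.02, 0.22 and -0.23 over all tested genes. Differently numbered pairs ran from -0.27 to 0.32. These few values over all tested genes gave no ground for pairing by number, and cannot exclude a link between same-numbered replicates. The B cell sum and Ighm fell from replicate 1 to replicate 3 in both groups, while the summed Ighv level fell in KO and rose in WT. With the replicate block edgeR called 0 segments and 0 genes, and the mean differences of the usage measures were the same. The 24 untested segments had 10 or more counts in at most 3 libraries.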

Other observations

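Both pseudogenes among the members were low in most libraries. Ighv5-21 had 19, 0 and 0 counts in KO, against 1, 0 and 0 in WT, and Ighv1-33 had 3, 9 and 13 counts in KO, against 3, 4 and 5 in WT. The 40 Ighv symbols outside the members include 21 further pseudogenes, and none of the 40 was at 0 in every library.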
